A study of Homo sapiens with 4 samples.

Results

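The Notch pathway was examined in cadmium-resistant breast cancer cells through 10 of its genes, out of 61541 genes in the count table. These were the receptors NOTCH1, NOTCH2 and NOTCH3, the ligands JAG1, JAG2 and DLL1, the ubiquitin ligases NEURL1B and MIB1, and the target genes HES1 and HEY1. The set was assembled because NEURL1B was lower in the cadmium libraries. The other 9 genes were added for their place in the pathway, though earlier results of these data were known. The NEURL1B difference is therefore given as a description without a test. MDA-MB-231 is an established triple-negative human breast cancer line. Cadmium-resistant cells (n = 2 libraries) were passaged long term in medium with cadmium at a final 10 µM, selected by serial passage in cadmium sulfate, and the parental control cells (n = 2 libraries) were passaged in ordinary medium. Both groups come from the same line with no transgene or gene deletion, and the resistant cells are a selected population rather than acutely treated cells. The control libraries are called control 2 and control 3 after their column names, and the cadmium libraries cadmium 1 and cadmium 2. The labels call the controls biological replicates and the cadmium libraries replicates only, so for the latter the spread may be technical.

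Notch signaling passes between touching cells. A ligand of the Jagged or Delta family on one cell binds a Notch receptor on its neighbour, and the ligand has to be ubiquitinated by a Mind bomb or Neuralized ligase and pulled into its own cell for the receptor to be activated. The receptor is then cut by ADAM proteases and γ-secretase, and its intracellular part joins RBPJ and a Mastermind protein on DNA to switch on target genes such as the HES and HEY repressors. In breast epithelium the pathway is known for its part in cell fate and in tumor growth.

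Total counts were between 51934729 and 61916007 per library. Between the controls the log2 ratio of normalized counts had a robust standard deviation of 0.56 over the 12924 genes averaging 100 or more normalized counts, against 0.16 between the cadmium libraries. Over the 19816 genes that DESeq2 tested, 23.6% had controls more than 2-fold apart and 6.55% had cadmium libraries more than 2-fold apart. The mesenchymal markers VIM, CD44, S100A4 and CAV1 were abundant in every library, with normalized counts from 19722 to 66806, while ESR1 and PGR had at most 29.6. The epithelial markers were not absent, and EPCAM was 2410 in control 2 against 662 to 774 in the other libraries, and CDH1 was 615 in control 3 against 107 to 169 in the others. Among markers of other cell types, normalized counts were 501 to 930 for COL1A1, at most 23.7 for PDGFRA and CDH5, 160 to 842 for PECAM1 and 1.89 to 143.5 for PTPRC, the latter 2 both lowest in control 2 and highest in control 3.

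Levels were first compared between genes per length, as RPKM, the reads per kilobase of merged exons scaled to the library total. In control cells NOTCH2 was the most abundant receptor at 23.3 ± 3.15 RPKM (SD, n = 2), followed by NOTCH1 at 8.47 ± 4.38 and NOTCH3 at 0.908 ± 0.326. Among the ligands JAG1 had 12.8 ± 11.8 RPKM, JAG2 3.49 ± 0.972 and DLL1 0.177 ± 0.142. The ligases MIB1 and NEURL1B had 6.77 ± 0.442 and 4.57 ± 0.539 RPKM. HES1 had 37.0 RPKM in control 2 and 5.93 in control 3 (mean 21.5), and HEY1 0.166 ± 0.147. In the order NOTCH2, HES1, JAG1, NOTCH1 and MIB1, the values of each gene overlapped those of the next, and DLL1 and HEY1 overlapped as well. In cadmium-resistant cells the order was NOTCH2 at 20.8 ± 0.124 RPKM, JAG1 at 20.6 ± 3.52, HES1 at 10.9 ± 1.72, NOTCH1 at 6.32 ± 0.0712, MIB1 at 6.19 ± 0.0915, JAG2 at 1.80 ± 0.207, NEURL1B at 1.47 ± 0.279, HEY1 at 0.548 ± 0.170, NOTCH3 at 0.248 ± 0.0667 and DLL1 at 0.0986 ± 0.0152 (SD, n = 2 each). Here the library values of NOTCH2 and JAG1 overlapped, as did those of JAG2 and NEURL1B. In the controls the lower NEURL1B value lay just above the higher JAG2 value.

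**Figure D1:**
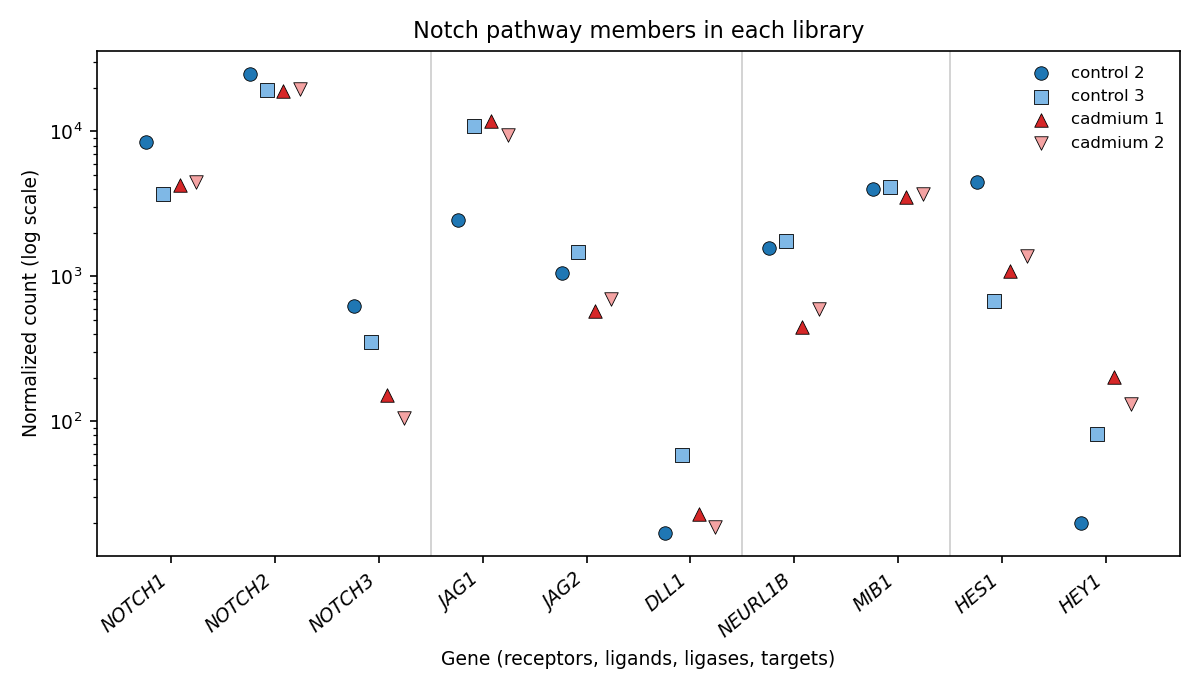
Normalized count (log axis) of each of the 10 Notch pathway genes in the 4 libraries, with blue symbols for the controls and red symbols for the cadmium libraries and no averaging. NEURL1B, NOTCH3, JAG2 and MIB1 have both red symbols below both blue ones, HEY1 has both above, and NOTCH1, JAG1, DLL1, HES1 and HEY1 have blue symbols more than 2-fold apart.

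NEURL1B, a Neuralized-type ubiquitin ligase that acts on Notch ligands, was lower in cadmium-resistant cells. It lies on chromosome 5 from 172641263 to 172691540 on the plus strand (ENSG00000214357, hg38). Its normalized count was 1575 in control 2 and 1755 in control 3, against 448 in cadmium 1 and 598 in cadmium 2. Both controls were high and close to each other, both cadmium libraries were low, and the groups did not overlap. The cadmium mean was 31.4% of the control mean, at 523 ± 106 against 1665 ± 127 (SD, n = 2 each), which as a log2 fold change is -1.67 (standard error 0.30). This is the value for which the gene was chosen, so no p-value is given. In bulk RNA a smaller share of expressing cells and less RNA per cell cannot be told apart. The log2 ratios of single cadmium to single control libraries ranged from -1.97 to -1.40, a range whose sign is fixed by the choice of the gene. Leaving out single libraries gave log2 fold changes from -1.90 to -1.48, the value nearest to 0 being that without cadmium 1.

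The 250 bases before the annotated start of NEURL1B (RefSeq, GRCh38.p14, chr5:172641013-172641262, plus strand) are shown because this gene prompted the set. The same windows of NOTCH3 (chr19:15200996-15201245, minus strand) and HES1 (chr3:194135898-194136147, plus strand) are shown for the receptor that fell and for the target gene that differed most between the controls. Each is written 5′ to 3′ on the strand of its gene, and capitals mark matches on either strand to the RBPJ core TGGGAA, to the metal response element core bound by MTF-1 (TGCACNC or TGCGCNC) or to the AP-1 site TGANTCA. For these 3 genes the first base was the same in RefSeq and in the count table.
NEURL1B: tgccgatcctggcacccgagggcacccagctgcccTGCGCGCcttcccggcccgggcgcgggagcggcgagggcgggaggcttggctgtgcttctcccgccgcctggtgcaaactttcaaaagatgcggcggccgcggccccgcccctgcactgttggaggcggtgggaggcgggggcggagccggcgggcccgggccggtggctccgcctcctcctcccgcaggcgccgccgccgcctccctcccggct
NOTCH3: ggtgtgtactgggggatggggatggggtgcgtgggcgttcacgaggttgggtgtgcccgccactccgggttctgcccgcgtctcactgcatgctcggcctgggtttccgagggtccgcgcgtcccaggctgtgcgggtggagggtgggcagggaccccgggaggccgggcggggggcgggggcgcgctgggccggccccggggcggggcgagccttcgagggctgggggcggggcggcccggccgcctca
HES1: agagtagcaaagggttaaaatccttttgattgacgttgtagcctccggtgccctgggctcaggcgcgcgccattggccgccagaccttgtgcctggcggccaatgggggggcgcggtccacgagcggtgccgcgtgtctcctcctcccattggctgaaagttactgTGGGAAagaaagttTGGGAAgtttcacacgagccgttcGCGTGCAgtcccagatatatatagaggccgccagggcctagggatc

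The NEURL1B window holds 1 match to the metal response element core, TGCGCGC, at 215 to 209 bases before the start. The NOTCH3 window holds none of the 3 motifs. The HES1 window holds 2 RBPJ cores, at 84 to 79 and 70 to 65 bases before the start, and 1 metal response element core on the opposite strand at 46 to 40 bases. No match overlapped another. Of 35116 promoter windows of this length, 20.9% hold an RBPJ core, 24.8% a metal response element core and 6.57% an AP-1 site, so single matches of the first 2 kinds are common. Windows of 8 of the 10 members were searched. Of the windows not printed, JAG1 and MIB1 each hold 2 metal response element cores and NOTCH1 holds 1. NOTCH2 and JAG2 hold no match to any of the 3 motifs. The MIB1 and NOTCH2 windows lie before a RefSeq start 35835 and 31117 bases inside the gene as the count table bounds it, and the JAG2 start lies 48 bases inside. No window of DLL1 or HEY1 was searched.

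NOTCH3 fell in cadmium-resistant cells. NOTCH3 (ENSG00000074181, chromosome 19, 15159038 to 15200995, minus strand) encodes a Notch receptor best known from smooth muscle and also studied in breast tumors. Its normalized count was 627 in control 2 and 352 in control 3, against 152 in cadmium 1 and 106 in cadmium 2. The groups did not overlap, although the controls differed 1.78-fold. The mean fell to 26.3% of the control mean, from 490 ± 195 to 129 ± 33.0 (SD, n = 2 each). The log2 fold change was -1.93 (standard error 0.44), at a DESeq2 adjusted p-value of 0.00311. With genes called at an adjusted p-value below 0.1, it was the 1 gene called among the 9 members other than NEURL1B, where 1.14% of all tested genes were called in either direction, 0.535% lower and 0.601% higher. The call depended on the test, with adjusted p-values of 0.620 in edgeR and 0.669 in limma-voom, neither of which called a gene (smallest adjusted p-values 0.494 and 0.656 over 19241 genes). Unadjusted p-values below 0.05 were found for NOTCH3, JAG2 and HEY1 in DESeq2 (6.92% of all genes tested) and in limma-voom (7.4%, 1423 genes), and for NOTCH3 and JAG2 in edgeR (7.83%, 1506 genes). The NOTCH3 call was also lost without cadmium 1 (log2 fold change -2.22, DESeq2 adjusted p-value 0.404) and without cadmium 2 (-1.69 and 1.00).

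The other receptors did not pass the test. NOTCH1 (chromosome 9, 136494433 to 136546048) had normalized counts of 8493 and 3720 in control 2 and control 3 and of 4304 and 4458 in the cadmium libraries. The cadmium libraries were close together and lay between the controls. The log2 fold change was -0.48 (standard error 0.41, DESeq2 adjusted p-value 1.00), and it was 0.23 without control 2 and -0.97 without control 3. NOTCH2 (chromosome 1, 119911553 to 120100779) had 25020 and 19467 in the controls and 18999 and 19529 in the cadmium libraries. Only control 2 stood apart, and the log2 fold change of -0.21 had a 95% interval from -0.73 to 0.32 (DESeq2 adjusted p-value 1.00). NOTCH4, a receptor known from blood vessels and no member of the set, had normalized counts of 63.4 and 45.7 in the controls and 62.7 and 118.5 in the cadmium libraries (log2 fold change 0.73, DESeq2 adjusted p-value 0.984).

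The ligands showed no common direction. JAG2 (ENSG00000184916, chromosome 14, 105140982 to 105168824), a Jagged ligand, had normalized counts of 1049 and 1475 in control 2 and control 3 and of 581 and 697 in cadmium 1 and cadmium 2. Both cadmium libraries were below both controls. The log2 fold change of -0.98 had a standard error of 0.32, an unadjusted DESeq2 p-value of 0.00227 and an adjusted p-value of 0.154, so JAG2 missed the threshold. It passed when a control was left out, with DESeq2 adjusted p-values of 1.90e-06 without control 2 and 0.00851 without control 3, where the spread was estimated from the close cadmium pair alone. JAG1 (ENSG00000101384, chromosome 20, 10637684 to 10673999), the other Jagged ligand, had normalized counts of 2434 and 10841 in control 2 and control 3, against 11772 and 9411 in the cadmium libraries. Control 2 was low by 4.45-fold against control 3, while control 3 lay within the range of the cadmium libraries. The log2 fold change of 0.67 (DESeq2 adjusted p-value 1.00) was -0.035 without control 2 and 2.11 without control 3. DLL1 (chromosome 6, 170282206 to 170306565), a Delta ligand, had few reads, 18 and 55 in the controls and 23 and 19 in the cadmium libraries. Each mate of a pair was counted, so the fragments were fewer, and 9.69% of its exon bases are shared with FAM120B on the other strand. The DLL1 log2 fold change of -0.86 (DESeq2 adjusted p-value 1.00) was 0.28 without control 3.

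MIB1, the Mind bomb ligase that serves most Notch ligands in mammals, did not pass the test. Its normalized counts on chromosome 18 (21704957 to 21870953) were 3996 and 4131 in the controls and 3544 and 3689 in the cadmium libraries. The cadmium libraries were below both controls, by a log2 fold change of -0.17 with a 95% interval from -0.65 to 0.31 (DESeq2 adjusted p-value 1.00). The interval includes 0. The other genes of the Mind bomb and Neuralized families had positive log2 fold changes, and none was called. MIB2 had 1633 and 2462 in the controls and 2659 and 2084 in the cadmium libraries (log2 fold change 0.21). NEURL4 had 2035 and 2168 against 2323 and 2490 (log2 fold change 0.20). NEURL1, another Neuralized family member, was far less abundant, with 100.3 and 39.3 against 130.4 and 79.0 (log2 fold change 0.58, DESeq2 adjusted p-value 1.00). NEURL2 had 8 and 6 reads in the controls and 20 and 29 in the cadmium libraries (log2 fold change 1.80, DESeq2 adjusted p-value 0.803), and NEURL3 had 2 reads in cadmium 2 and none elsewhere.

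The target genes HES1 and HEY1 differed widely between the controls. HES1 (ENSG00000114315, chromosome 3, 194136148 to 194138732) encodes a bHLH repressor induced by Notch in many tissues, and the 2 RBPJ cores printed above lie in its promoter window. Its normalized count was 4467 and 674 in control 2 and control 3, against 1091 and 1391 in the cadmium libraries. Control 2 was 6.63-fold above control 3, and both cadmium libraries lay between them. Its log2 fold change of -1.05 was not called (standard error 1.17, DESeq2 adjusted p-value 1.00). The value turned to 0.88 without control 2 and was -1.86 without control 3, so the sign for HES1 differed with the control used. HEY1 (chromosome 8, 79762371 to 79767857), a related bHLH repressor, had 19.9 and 81.9 in control 2 and control 3, against 201 and 131 in the cadmium libraries. Both cadmium libraries were above both controls, but the controls were 4.12-fold apart. HEY1 had a log2 fold change of 1.71 (standard error 0.70, DESeq2 p-value 0.0142, adjusted 0.420). It was 1.02 without control 2 and 3.05 without control 3.

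**Figure D2:**
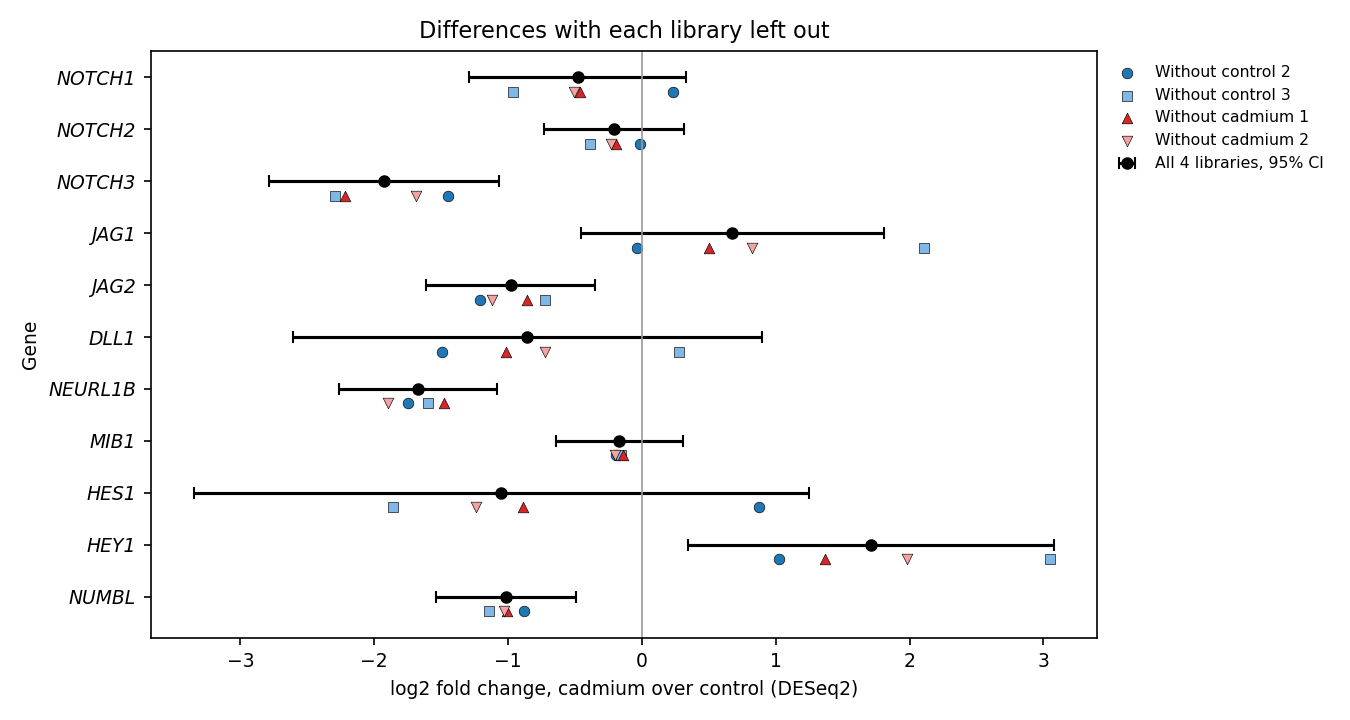
DESeq2 log2 fold change (cadmium over control) of the 10 genes and of NUMBL, with black points and 95% confidence intervals for all 4 libraries and coloured symbols below them for the value with 1 library left out. The coloured symbols of NEURL1B, NOTCH3, JAG2, MIB1, NUMBL and NOTCH2 stay below 0. For all of these but NOTCH2, both cadmium libraries lay below both controls, so that sign was largely fixed beforehand. The intervals of MIB1 and NOTCH2 include 0. The values of HES1, NOTCH1, JAG1 and DLL1 cross 0 when a control is left out.

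Of the 9 members other than NEURL1B, 7 had a negative and 2 a positive log2 fold change, with a median of -0.48 against -0.02 over all genes tested. Both cadmium libraries lay below both controls for 3 of the 9 (NOTCH3, JAG2 and MIB1) and above for 1 (HEY1), where 19.9% and 20.3% of all tested genes did so, or 40.3% on either side. The controls were more than 2-fold apart for 5 of the 10 members, against 23.6% of all genes tested. The cadmium libraries were so for 0 of the 10, against 6.55%. NEURL1B, chosen for its fall, is among the 10. EPCAM, CDH1, PECAM1 and PTPRC also separated control 2 from control 3, and their part in the HES1, HEY1, JAG1 and NOTCH1 values was not tested.

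The members were next set beside their neighbours on the chromosome. For the 20 genes on each side of NEURL1B on chromosome 5 (160401641 to 176416539) averaging 100 or more normalized counts, the median log2 ratio of cadmium to control means was -0.04, against -1.67 for NEURL1B, and 1 of the 40 lay below it. That gene was MSX2, a homeobox factor, at -2.50, named after its value was seen. NEURL1B was chosen because it fell, so its place among its neighbours is a description and no test. Around NOTCH3 (chromosome 19, 13961530 to 16660442) the median was -0.08, against -1.92 for NOTCH3, and 0 of the 40 lay below it. For HEY1 the 40 neighbours had a median of -0.03 and none lay above it. The 30 neighbours of JAG2, with 10 on the side of the chromosome end, had a median of -0.02 and 1 lay below it. For MIB1 the neighbours had a median of -0.30, against -0.17 for the gene, but the median was 0.04 without control 2 and -0.46 without control 3. The median log2 ratio of control 3 over control 2 among these neighbours was -0.58. The neighbours of HES1 and JAG1 had control 3 over control 2 medians of 0.12 and 0.02, against -2.73 and 2.16 for the genes themselves.

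**Figure D3:**
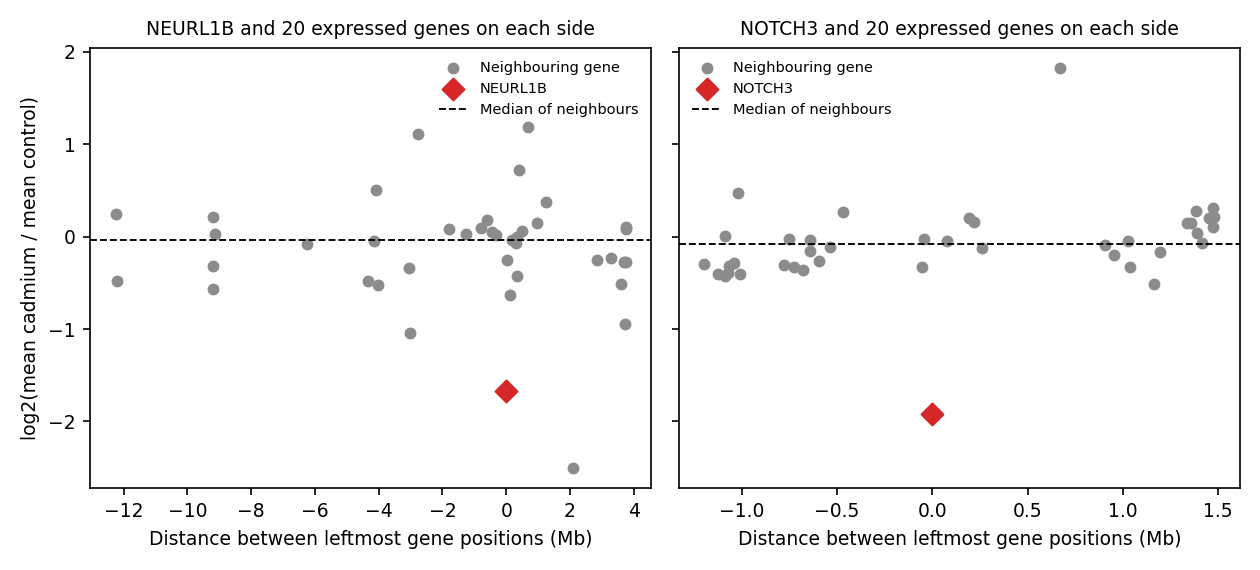
Log2 ratio of the cadmium to the control mean normalized count (y axis) for NEURL1B and NOTCH3 (red diamonds) and the 20 expressed genes on each side (grey points), against the distance from the member in megabases. The dashed lines mark the neighbours' medians of -0.04 and -0.08, and the members sit at -1.67 and -1.92. NEURL1B was chosen for its fall, so its distance from the dashed line is a description only.

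The wider pathway was followed through 61 further genes, of which 54 were tested. NUMBL, which encodes a Numb-like endocytic adaptor of the Numb family of Notch inhibitors, was the 1 gene called of the 54, and it fell, where 1.14% of all tested genes were called and 0.535% were called lower. On chromosome 19 (40665905 to 40690972), its normalized count was 2476 in control 2 and 2080 in control 3, against 1118 in cadmium 1 and 1139 in cadmium 2. Replicates were close and the groups did not overlap. Its log2 fold change was -1.01 (standard error 0.27), and the DESeq2 adjusted p-value was 0.0268. The adjusted p-value was 0.620 in edgeR and 0.669 in limma-voom, and 1.00 without either cadmium library. Its relative NUMB had 3869 and 5988 in the controls and 5453 and 5677 in the cadmium libraries (DESeq2 adjusted p-value 1.00).

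Over the list, 33 genes had a negative and 21 a positive log2 fold change, with a median of -0.08. Both cadmium libraries were below both controls for 13 of the 54 and above for 9, close to the 19.9% and 20.3% of all tested genes. Among the proteases, ADAM10, which makes the first receptor cut after ligand binding, had normalized counts of 17262 and 11779 in the controls against 10292 in cadmium 1 and 10229 in cadmium 2 (log2 fold change -0.50, DESeq2 adjusted p-value 0.842). The γ-secretase subunits NCSTN and APH1A had log2 fold changes of -0.26 and -0.16. APH1B, another subunit of that complex, was named after its values were seen, with 951 and 924 in the controls against 532.5 and 487.7 in the cadmium libraries. Its log2 fold change was -0.88 and its DESeq2 adjusted p-value 0.124. All 5 sugar transferases of the list had a negative log2 fold change and none was called. Their median was -0.37, against -0.02 over all genes tested. POFUT1, which adds O-fucose to Notch, had -0.37 and RFNG, a Fringe enzyme, had -0.17. LFNG, the Fringe enzyme Lunatic fringe, was 733 and 5349 in control 2 and control 3 against 1369 and 1938 in the cadmium libraries, so the cadmium libraries lay between controls that were 7.29-fold apart.

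In the nuclear complex 6 of 8 genes had a positive log2 fold change and 0 were called. The median was 0.09, against -0.02 over all genes tested. RBPJ, the DNA-binding partner of the receptor, had 9003 and 11790 in the controls against 14241 in cadmium 1 and 13732 in cadmium 2 (log2 fold change 0.43, DESeq2 adjusted p-value 0.894). SNW1 and EP300, both coactivators, had 0.23 and 0.07. Of the 10 corepressors tested, 8 had a negative log2 fold change and 0 were called, with a median of -0.07. Among them NCOR1 and HDAC2 had 0.03 and -0.02. Among the ubiquitin ligases that act on the receptor side, ITCH had 0.06 and DTX2 had -0.66 (DESeq2 adjusted p-value 0.592). The remaining ligands were scarce or unresolved. DLK2 had -0.32, DNER had -0.16 and DLL4 had 6 and 16 reads in the controls against 27 and 46 in the cadmium libraries (log2 fold change 1.68, DESeq2 adjusted p-value 0.802). DLK1, named after its values were seen, had no read in any library. Were reads independent, this would allow up to 3 counts, or 0.0485 to 0.0578 CPM, depending on the library. Each mate of a pair was counted, so the true bound is higher.

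Of the 5 tested bHLH targets outside the set, HES4, HES6 and HEYL were highest in control 2, while HES7, with 22 to 81 reads, was lowest in cadmium 1. HES4 had 1035 in control 2 against 384 in control 3, 425 in cadmium 1 and 392 in cadmium 2. HES6 had 801 against 393, 418 and 465. Both were high in control 2 alone, as HES1 was, and their log2 fold changes of -0.80 and -0.44 did not pass (DESeq2 adjusted p-values 0.864 and 1.00). HEYL and NRARP, named after their values were seen, were likewise highest in control 2, at 190 against 69.1 to 81.9 for HEYL and 344 against 94.6 to 107.4 for NRARP, a Notch-induced inhibitor of the pathway. FURIN, the protease that makes the first cut of newly made receptors and also named after its values were seen, had 17482 in control 2 and 3264 to 4320 elsewhere. HES2 went the other way, with 313 in control 2 and 520 to 612 elsewhere, as did HEY1. Between the controls alone, HES7, LFNG and DLL4, among others, were also higher in control 3. Their normalized counts in control 2 and control 3 were 45.4 and 81.9 for HES7, 733 and 5349 for LFNG, and 5.68 and 17.0 for DLL4. The controls were more than 2-fold apart for 11 of the 54 tested genes of the list, against 23.6% of all genes tested.

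**Figure D4:**
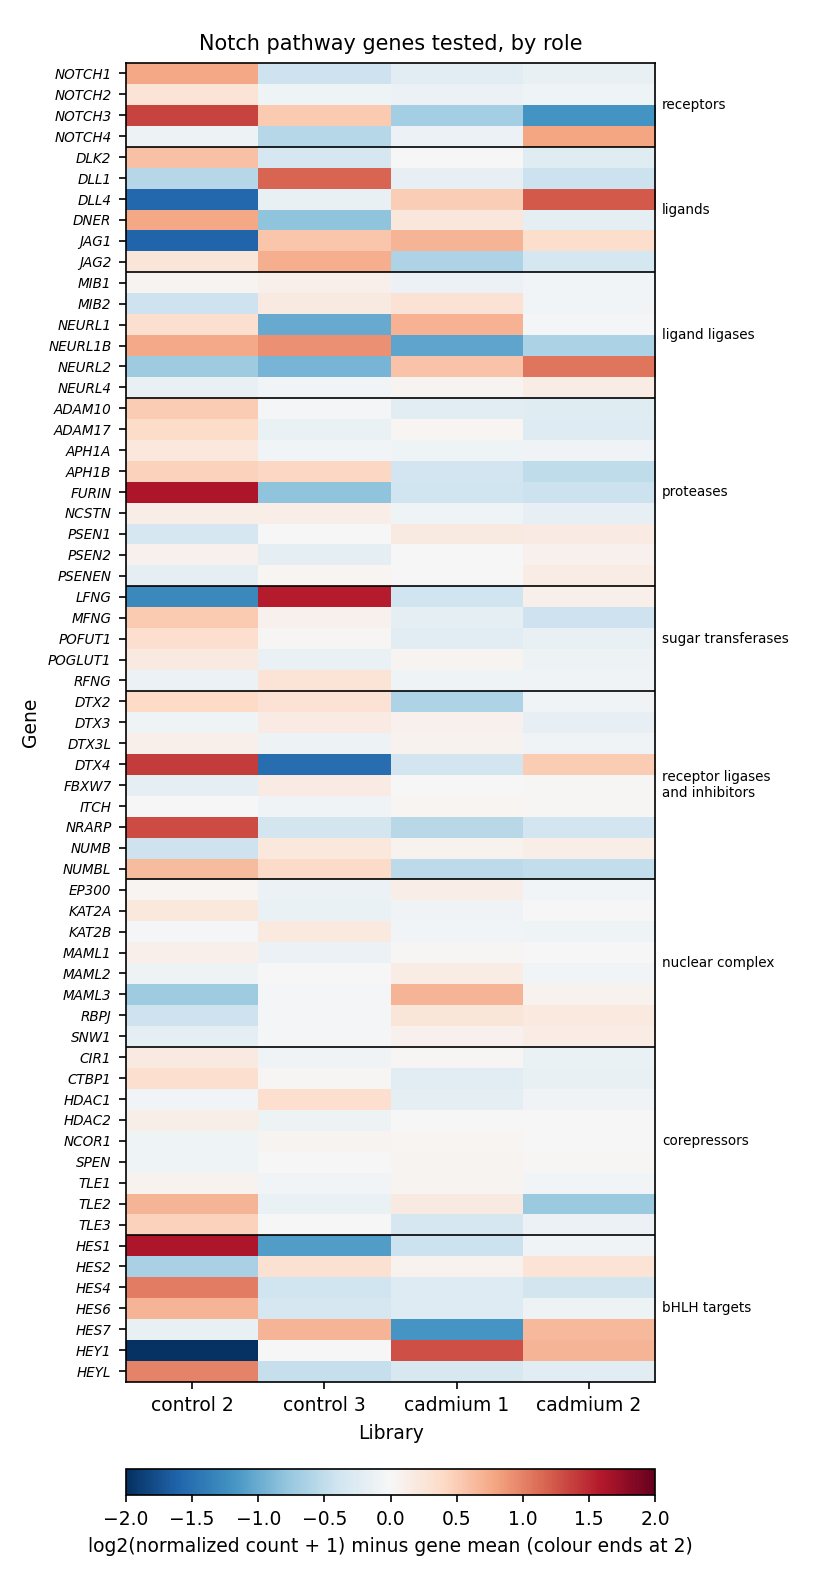
Log2 of the normalized count plus 1, minus the mean of the gene over the 4 libraries (colour, ending at 2 either way), for tested Notch pathway genes grouped by role, with 1 column per library. The control 2 column holds the strongest colours, including HES1, FURIN, NRARP, JAG1 and HEY1, while NEURL1B, NOTCH3 and NUMBL are red in both controls and blue in both cadmium libraries.

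Across all genes, the profile most like that of NEURL1B over the 4 libraries was sought by Euclidean distance of log2 normalized counts plus 1. Values were centred on the mean of each gene. The search covered the 12924 genes averaging 100 or more normalized counts, NEURL1B among them. The 5 nearest were ZNF488 (distance 0.235), PLAAT4 (0.255), AFAP1L2 (0.349), LY6E (0.352) and MOXD1 (0.357). ZNF488 had normalized counts of 1094 and 1259 in the controls and 339 and 514 in the cadmium libraries, and MOXD1 had 470 and 609 against 177 and 244. Of the Notch genes, JAG2 ranked at position 64 by this distance, NUMBL at position 70 and NOTCH3 at position 204, while HES1 and HEY1 were at positions 11833 and 12809. These ranks rest on 4 libraries and describe likeness only. NEURL1B was chosen for its fall, so a near rank largely restates a similar fall.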

How the data were processed

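RNA-seq of total RNA from MDA-MB-231 cells was analysed in 4 libraries, 2 from control and 2 from cadmium-resistant cells. Adaptors were removed by the authors with bbduk, pairs were aligned to hg38 with hisat2, and reads were counted per gene with featureCounts 2.0.1 on an Ensembl annotation. The deposited values are raw counts, not normalized. Only annotation and output were set, so strand was ignored, multi-mapping and multi-overlapping reads were dropped, and each mate was counted (70.6% to 71.5% of counts from 1 to 20 were even). Counting error is therefore larger than the counts alone give. The control columns carry the numbers 2 and 3 and the labels 1 and 2, so these columns were assigned to the group only. The cadmium libraries differed by more than counting noise, with a mean chi-square of 22.1 per gene. Symbols matched 61369 of 61541 identifiers.

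Differences were tested with DESeq2 1.42.0 (R 4.3.3) over the whole table. The study used DESeq2 too, and the settings chosen here were median-of-ratios size factors, two-sided Wald test, Benjamini-Hochberg adjustment after filtering at a mean normalized count of 7.69, and a threshold of 0.1. Alternatives were edgeR 4.0.16, limma 3.58.1 (voom), other scalings and filters, halved counts and leaving out libraries. Scripts were tested on simulated data. Genes named beyond the 10 members were those called, the 3 most abundant per role, NOTCH4, the Neuralized family, the NOTCH2NL paralogs and the 5 closest profiles. APH1B, DLK1, FURIN, HES7, HEYL, NRARP and MSX2 were named after their values were seen. Members and lists were chosen with earlier results of these data known. A gene of the wider list that this rule would name is not reported here or drawn, though it stays in the counts. Promoter windows came from RefSeq. Python 3.11.15 was used for plots.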

Additional observations from a re-analysis of the deposited data

How the results depend on the processing

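No paired analysis was possible because the numbers in the names of the controls (2 and 3) are not those of the labels (1 and 2). Of all genes, 119 were called higher and 106 lower by DESeq2, against 0 and 0 by edgeR (1506 at an unadjusted p-value below 0.05) and 0 and 0 by limma-voom (1423). Leaving out 1 library at a time gave 9 to 2678 higher and 5 to 3511 lower. Most were called without control 3, where the spread comes from the cadmium pair, and fewest without cadmium 1 or cadmium 2, where it comes from the controls. The single library of a group is then assumed to vary like the other group. Among the 9 members other than NEURL1B, 1 was called, 0 by edgeR and by limma-voom, and 0 to 7 with a library left out. From the wider list 1 was called, 0 by edgeR and by limma-voom, 2 (APH1B and NUMBL) when at least 10 counts in 2 libraries were required, and 0 to 25 with a library left out. The log2 fold change of NOTCH3 was -1.92 in edgeR and -1.90 in limma-voom, passing the threshold in neither. With 1 library left out, log2 fold changes ranged from -0.97 to 0.23 for NOTCH1, -0.39 to -0.017 for NOTCH2, -2.29 to -1.45 for NOTCH3, -0.035 to 2.11 for JAG1, -1.21 to -0.73 for JAG2, -1.49 to 0.28 for DLL1, -1.86 to 0.88 for HES1 and 1.02 to 3.05 for HEY1. NEURL1B lay between -1.68 and -1.61 over the 8 other alternatives. Upper-quartile factors shifted the median of all genes by 0.06 and turned the direction of no member. The medians of neighbouring genes moved by less than the replicate spread of a typical neighbour under all 7 alternatives for each member, though that around MIB1 was 0.04 without control 2. DLL1, NEURL2 and DLL4 had at most 55 reads in a library.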

Other observations

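Genes that can share or lie beside the reads of a member were read off the same table. The NOTCH2NL genes are partial copies of NOTCH2, and reads that fit both are dropped by the counting. NOTCH2NLC had normalized counts of 149.5 and 208.4 in the controls and 175.2 and 189.6 in the cadmium libraries. NOTCH2NLA had at most 13 reads, NOTCH2NLB at most 5 and NOTCH2NLR at most 2 in a library. All are small beside NOTCH2, and the number of dropped reads cannot be read from the table. The gene ENSG00000253683 lies inside the span of NEURL1B on the other strand and shares no exon base with it. It had 785 and 419 reads in control 2 and control 3 against 459 and 544 in the cadmium libraries, so the cadmium libraries lay between the controls. A further gene on that strand, ENSG00000253445, shares 383 bases (5.96%) of the NEURL1B exons and had 0 reads in every library, and reads in that stretch would count for neither gene.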
